A study of Mus musculus with 42 samples.

Results

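*Insrr*, *Dmpk*, *Agt*, *Pex5l*, *Pamr1*, *Prss23*, *Gnao1* and *Kcnh6* are 8 of the 16136 genes that all 7 mutant tables of a mouse colon RNA sequencing series list. They were chosen by their normalized counts and fold changes, which were higher in the distal colon of both *Mtg16* mutants than in wild-type (WT) littermates. Their distal values therefore describe them and are given with no test. Whether they were also higher in proximal colon, after epithelial injury and in tumors was tested in libraries other than those of the distal contrasts that chose them. The labels do not say whether proximal and distal libraries share mice, and earlier results of these data were known. The series holds 42 libraries. All mice had a C57/BL6 background and were at least 8 weeks old. One colony carried the *Mtg16*-null allele and another the P209T substitution of MTG16, and the homozygous mutants, called Mtg16-null and T/T here, were compared with WT littermates of their own colony. Both are germline alleles, carried by every cell of the mouse.

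Untreated crypts came from 5 cm of proximal colon beside the cecum (2 Mtg16-null and 2 WT libraries, 2 T/T and 2 WT) and from 5 cm of distal colon beside the anus (4 Mtg16-null and 4 WT, 4 T/T and 3 WT). Distal crypts were also taken after 5 days of 2% dextran sulfate sodium (DSS), a salt that injures the colonic epithelium, and 4 days of recovery on water (4 Mtg16-null and 3 WT, 3 T/T and 3 WT). Tumors came from T/T mice and WT littermates (3 and 3) given 10 mg/kg of the carcinogen azoxymethane and 3 cycles of 3% DSS, each of 4 days of DSS and 16 days of water. No tumors of Mtg16-null mice were analysed here. Values are normalized counts, that is, read counts per gene divided by a size factor per library. They were scaled within each table, and mutant was tested against WT only within a table. The resulting log2 fold changes of the mutants were then tested against each other between tables.

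MTG16 is a transcriptional corepressor. It has no DNA-binding domain of its own and is brought to genes by transcription factors, among them the E proteins E2A and HEB, which bind the E-box sequence CANNTG. The P209T substitution weakens the contact with E proteins and leaves the rest of MTG16 in place. In the colon epithelium, secretory progenitors give rise to mucus-making goblet cells and to hormone-making enteroendocrine cells, which share much of their signaling and secretory machinery with neurons. The 8 genes belong to no single pathway, though the study names *Insrr*, *Agt*, *Pex5l* and *Kcnh6* among genes associated with enteroendocrine cells. *Insrr* encodes the insulin receptor-related receptor, a tyrosine kinase that responds to alkaline pH. *Dmpk* encodes the serine/threonine kinase of the myotonic dystrophy locus, known from muscle. *Agt* encodes angiotensinogen, the secreted precursor from which renin cuts angiotensin. *Prss23* encodes a secreted serine protease and *Pamr1* a secreted protein with a protease-like domain. *Gnao1* encodes the G protein alpha subunit that is abundant in neurons and endocrine cells, *Kcnh6* a voltage-gated potassium channel of the ERG family, and *Pex5l* a neuronal relative of the peroxisomal import receptor PEX5 that binds HCN channels.

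The gene of MTG16, listed as *Cbfa2t3*, had a lower mean in Mtg16-null than in WT crypts in each of 3 comparisons (844 against 2428 normalized counts in proximal colon, 725 against 1514 in distal colon and 526 against 2128 after DSS). The last of these differences passed the test (log2 fold change -2.02, adjusted p = 0.00292, limma). A count over the whole gene does not separate an altered transcript from an intact one. In T/T the gene's log2 fold change lay between 0.13 and 0.90, none of them called. A library stood apart: the one labelled distal Mtg16-null replicate 2. In it *Hoxd13*, *Hoxd12* and *Hoxd10*, homeobox genes of the distal colon, were at 0, while the other 7 libraries of its table had 3576 to 6654, 166 to 470 and 218 to 438. *Prap1* and *Abca12*, high in the proximal libraries, stood at 1947 and 9746 there against at most 42.7 and 22.9 in the others. These genes were chosen after their values were seen. The distal Mtg16-null fold changes of the 8 genes are therefore given below with and without this library. Unless said otherwise, distal Mtg16-null values and calls of other genes, *Cbfa2t3* among them, include it. The epithelial marker genes summed to 634980 to 795010 normalized counts in distal Mtg16-null crypts (703200 to 795000 without this library) and 691650 to 758580 in WT, and to 611800 to 734430 in distal T/T against 594560 to 669960. Distal T/T replicate 4 also held smooth muscle and fibroblast markers, which summed to 1981 and 1059 there, against 53.4 to 91.5 and 23.8 to 127.6 in the other T/T libraries and 82.0 to 89.1 and 43.8 to 108.6 in WT. Where whole reads could be recovered, the libraries held 32231389 to 74661922 reads assigned to genes.

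In distal colon, *Insrr* ranked 3 by log2 fold change among the 13831 genes tested in Mtg16-null (5 of 13720 without replicate 2) and 1 among the 13535 tested in T/T. It had 950.3, 1499.8, 602 and 998 normalized counts in the Mtg16-null libraries and 57.7, 56.7, 36.9 and 55.2 in WT. In the other colony it had 346, 278, 442 and 369 in T/T and 32.4, 43.1 and 40.5 in WT. The lowest mutant library of either colony was thus several-fold above its highest WT library. The log2 fold change was 4.22 (standard error 0.28) in Mtg16-null, 4.00 (0.24) without replicate 2, and 3.17 (0.19) in T/T.

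*Dmpk* had 2831, 1815, 2626 and 2379 normalized counts in distal Mtg16-null and 684, 537, 981 and 679 in WT. In T/T it had 1412, 1321, 1615 and 1637 against 579, 703 and 611. The groups were apart in both colonies, with the library labelled Mtg16-null replicate 2 the lowest of the mutants. The log2 fold change was 1.76 (standard error 0.20) in Mtg16-null, 1.89 (0.18) without that library, and 1.24 (0.11) in T/T. In T/T replicate 4, the library with the smooth muscle markers, *Dmpk* was at 1637, and their part in it was not tested. *Agt* had 428, 379.9, 325 and 622 in Mtg16-null and 148, 137, 148 and 169.8 in WT. Its T/T libraries lay close together, at 224, 257, 247 and 249.9 against 101.3, 95.02 and 104. On the log2 scale the difference was 1.498 (standard error 0.20) in Mtg16-null, 1.55 (0.22) without replicate 2, and 1.28 (0.12) in T/T.

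**Figure D1:**
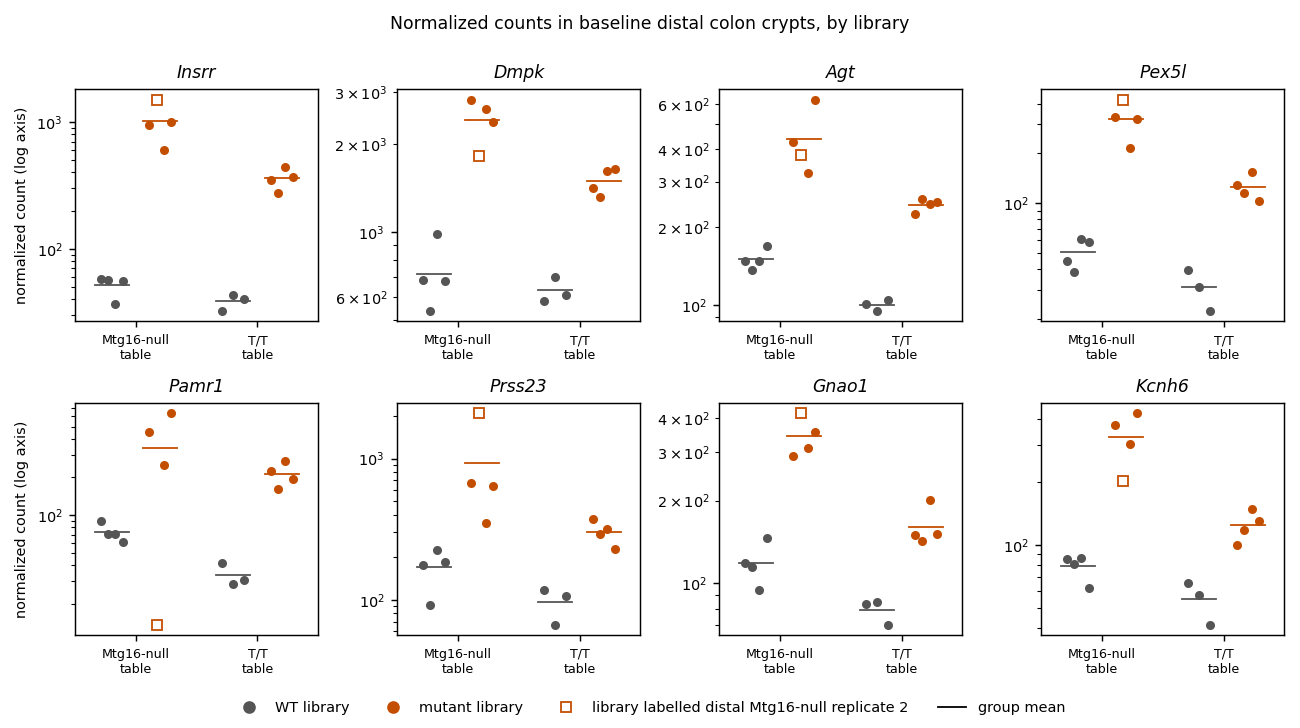
Normalized counts (log axis) of the 8 genes in untreated distal crypts, each point a library and each line a group mean, with the library labelled Mtg16-null replicate 2 as an open square. These are the libraries on which the genes were chosen, and the WT and mutant points are apart in each panel except for *Pamr1* in Mtg16-null, where the open square lies at 13.6, below the WT libraries.

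The letters before the start site of *Dmpk* and of *Agt* are shown because *Dmpk* is the member that passed the test in most of the comparisons below and *Agt* the one nearest to the *Mtg16* gene. The windows are the 250 bases before the RefSeq start site (GRCm38.p6), chr7:19083608-19083857 on the plus strand for *Dmpk* and chr8:124569707-124569956 on the minus strand for *Agt*, written 5′ to 3′ with the E-box letters CANNTG in capitals.

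Dmpk: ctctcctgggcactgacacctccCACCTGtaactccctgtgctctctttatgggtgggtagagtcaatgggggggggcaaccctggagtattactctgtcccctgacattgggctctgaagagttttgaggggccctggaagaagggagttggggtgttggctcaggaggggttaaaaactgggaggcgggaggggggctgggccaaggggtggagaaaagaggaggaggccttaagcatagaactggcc

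Agt: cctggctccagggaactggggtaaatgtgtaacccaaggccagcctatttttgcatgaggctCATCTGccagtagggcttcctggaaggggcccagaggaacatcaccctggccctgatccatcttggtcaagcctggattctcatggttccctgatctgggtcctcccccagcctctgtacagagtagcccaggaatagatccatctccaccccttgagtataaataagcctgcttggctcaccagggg

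The *Dmpk* window holds CACCTG and the *Agt* window CATCTG, starting at -227 and -188 from the start site. RefSeq windows were matched for 5 of the 8 genes, and *Insrr*, *Pex5l* and *Pamr1* had no entry. Besides *Dmpk* and *Agt*, *Prss23* (CAGTTG) and *Gnao1* (CACATG) each hold 1 match and *Kcnh6* holds none. CANNTG reads the same way on both strands, and 66.2% of 32851 windows of that length hold at least 1. CAGGTG or its reverse complement CACCTG stands in 17.2% of all windows and, of the 5, in that of *Dmpk* alone. A match describes the letters and is not evidence of binding.

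The secreted proteases had a wider spread in distal Mtg16-null crypts. *Prss23* had 666, 2084, 351 and 639 normalized counts in Mtg16-null and 177, 91.5, 225 and 185 in WT, and 376, 293, 318 and 229.5 in T/T against 118, 66.6 and 106. Its highest value was that of the library labelled replicate 2. The log2 fold change was 2.21 (standard error 0.51) in Mtg16-null, 1.71 (0.33) without that library, and 1.66 (0.25) in T/T. *Pamr1* had 449, 13.6, 249 and 634 in Mtg16-null and 90.5, 70.6, 70.6 and 61.4 in WT. Here the library labelled replicate 2 lay below each WT library, and the groups overlapped. Its fold change on the log2 scale was 1.29 (standard error 1.05), and without that library 2.50 (0.30). In T/T *Pamr1* had 223, 159, 269 and 193 against 41.8, 28.4 and 30.9, a log2 fold change of 2.60 (0.23).

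The genes known from neurons were higher in both mutants as well. *Pex5l* had 331, 423, 215 and 322 normalized counts in Mtg16-null against 44.6, 38.2, 60.9 and 58.3, and 129.6, 115, 154 and 103 in T/T against 39.7, 31.3 and 22.4. Its log2 fold change was 2.64 (standard error 0.25) in Mtg16-null, 2.49 (0.25) without replicate 2, and 2.00 (0.24) in T/T. *Kcnh6* had 374, 202, 305 and 425 in Mtg16-null against 85.2, 81.1, 86.8 and 62.5, and 99.9, 118, 148 and 131 in T/T against 65.8, 57.8 and 41.5. No library of either mutant fell among the WT libraries for these channel-related genes. The log2 fold change of *Kcnh6* was 1.99 (0.25), without replicate 2 2.21 (0.19), and in T/T 1.17 (0.22). *Gnao1* had 292, 417, 311 and 357 in Mtg16-null against 118, 115, 93.9 and 146, and 149.9, 142, 200.2 and 151 in T/T against 83.5, 85.2 and 70.3. Its log2 fold change was 1.54 (0.18), without replicate 2 1.44 (0.18), and in T/T 1.00 (0.17).

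Over the 8 genes, the median log2 fold change in distal colon was 1.88 in Mtg16-null (2.05 without replicate 2) and 1.47 in T/T, and over all genes tested it was -0.01 in each. Every mutant library was above every WT library for 7 of the 8 in Mtg16-null (8 without replicate 2) and for 8 in T/T. The same held for 2.58% of all genes in Mtg16-null (4.2% without replicate 2) and 4.39% in T/T. Limma called 0.239% of all genes higher in Mtg16-null (0.969% without replicate 2) and 0.0369% in T/T. Since these contrasts chose the genes, nothing is read from the counts. The names of the distal libraries of the Mtg16-null colony begin with 5094 for the first 2 replicates of each genotype and with 4149 for the others. The proximal libraries of that colony begin with 4149 too, and the labels do not say what these numbers stand for. The log2 fold change of *Insrr* was 4.36 within 5094 and 4.07 within 4149, that of *Dmpk* 1.90 and 1.61, and that of *Agt* 1.496 and 1.5. Within 5094, which holds the library that stands apart, the value was 0.0016 for *Pamr1* and 3.20 for *Prss23*, against 2.58 and 1.21 within 4149.

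Per kilobase of exon, the order of the genes differed between WT and mutant. In distal WT crypts of the Mtg16-null colony, *Dmpk* was the most abundant, with 166 ± 43.1 normalized counts per kb (SD, n = 4), ahead of *Agt* with 79.6 ± 7.33, *Prss23* with 45.1 ± 14.96 and *Kcnh6* with 22.2 ± 3.16. *Pamr1* (12.1 ± 2.02), *Gnao1* (10.7 ± 1.93) and *Insrr* (9.04 ± 1.73) lay within their spread of each other, and *Pex5l* was the lowest (5.71 ± 1.23). In Mtg16-null, *Insrr* reached 177 ± 64.7 per kb, within the spread of *Agt* (232 ± 68.4) and of *Prss23* (248 ± 207), and only *Dmpk* stood clearly above (557 ± 102). The *Prss23* mean rests on the library labelled replicate 2. Without it, *Prss23* was at 147 ± 46.3 per kb (SD, n = 3), level with *Insrr* at 149 ± 37.8, while *Agt* was at 242 ± 79.9 and *Dmpk* at 603 ± 52.3.

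In proximal colon, the *Dmpk* rise was present in both mutants and that of *Insrr* was called in T/T. *Dmpk* had 1426 and 1513 normalized counts in Mtg16-null and 275 and 208 in WT, and 522 and 687 in T/T against 165 and 179. The mutant libraries were several-fold above WT in each colony. Its log2 fold change was 2.61 (standard error 0.19, adjusted p = 0.010, limma) in Mtg16-null and 1.79 (0.18, adjusted p = 0.0392, limma) in T/T. *Insrr* had 1048 and 1308 in Mtg16-null against 489.5 and 479, and 700.4 and 989 in T/T against 274 and 239. The groups were apart in both colonies. Its log2 fold change was 1.27 (95% confidence interval 0.87 to 1.68) in Mtg16-null, not called at an adjusted p of 0.106, and 1.70 (1.22 to 2.17) in T/T, called at an adjusted p of 0.0466 (limma).

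Limma thus called 1 of the 8 genes higher in proximal Mtg16-null colon, where 0.0359% of 13944 genes were called higher, and 2 of the 7 tested in proximal T/T colon, where it was 0.138% of 13767. With the replicate number as a block, *Insrr* (adjusted p = 0.0348, limma) joined *Dmpk* in Mtg16-null, where 0.0789% of genes were then called higher. The numbers are not known to pair these libraries. *Pamr1* fell under the minimum mean of 10 normalized counts in the T/T table, with 6.35 and 20.1 in T/T and 1.01 and 8.36 in WT, and was not tested there. With 2 libraries per group these calls were fragile. *Dmpk* in Mtg16-null had an adjusted p of 0.0652 without Mtg16-null replicate 1 and 0.0839 without replicate 2, and both T/T calls were lost without any of the 4 libraries (adjusted p from 0.0564 to 0.355, limma). Marker genes of smooth muscle, where *Dmpk* is known to be active, summed to 3825 and 62.9 normalized counts in Mtg16-null replicates 1 and 2 and to 101.3 and 76.5 in WT, with *Dmpk* at 1426 and 1513 in those Mtg16-null libraries. In T/T replicates 1 and 2 they summed to 44.4 and 1448, with *Dmpk* at 522 and 687. The part of smooth muscle in these values was not tested. Epithelial markers summed to 693140 to 775950 in proximal Mtg16-null and 593290 to 686540 in WT.

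Of the other genes, *Kcnh6* had 224 and 216 normalized counts in proximal Mtg16-null and 64.4 and 51.7 in WT, and 87.8 and 116 in T/T against 42.2 and 36.2. *Agt* had 368 and 548 in Mtg16-null against 207 and 153, and 240.2 and 208 in T/T against 96.5 and 113. *Pex5l* had 281 and 332 in Mtg16-null against 211 and 111, and 176 and 151 in T/T against 71.4 and 35.3. None of these 3 overlapped between genotypes, and none was called. The log2 fold changes of *Kcnh6* were 1.91 (adjusted p = 0.154) and 1.34 (0.19), those of *Agt* 1.33 (0.322) and 1.09 (0.143), and those of *Pex5l* 0.99 (0.737) and 1.68 (0.19), for Mtg16-null and T/T in that order (limma). *Gnao1* was at 324 and 328 against 329 and 185 in Mtg16-null and at 278 and 249 against 209.1 and 161 in T/T, with log2 fold changes of 0.40 (95% confidence interval -0.32 to 1.12) and 0.52 (0.04 to 1.00). *Prss23* had the smallest differences, with 1196 and 1566 in Mtg16-null against 891 and 2001 in WT and 1285 and 992 in T/T against 898 and 992. Its log2 fold change was 0.04 (-0.82 to 0.89) in Mtg16-null and 0.26 (-0.10 to 0.62) in T/T. *Pamr1* had 15.7 and 16.0 in Mtg16-null against 6.01 and 8.27 (1.06, -0.43 to 2.56).

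Every mutant library was above every WT library for 6 of the 8 genes in proximal Mtg16-null and 7 of the 8 in proximal T/T, which with 2 libraries a group was also the case for 17.5% and 22.6% of all genes. *Prss23* in T/T counts here by less than 1 normalized count (991.9 against 991.7). The median log2 fold change of the genes was 1.17 and 1.34, against 0.00 and -0.01 over all genes. Marker sums of several cell types were also apart between genotypes. The enteroendocrine sum was 30813 to 44687 normalized counts in proximal Mtg16-null and 23052 to 28232 in WT, and 29130 to 36972 in T/T against 20879 to 24759, with 16 and 15 of the 18 markers at a positive log2 fold change and none called. In the distal colon the sums were 46289 to 56353 against 19229 to 23659 in Mtg16-null (47720 to 56350 without replicate 2), with 17 of 18 markers at a positive log2 fold change and 4 called, and 22469 to 34082 against 18547 to 22300 in T/T, with 14 of 17 tested and none called. Neuron markers, some of which endocrine cells also express, summed to 400.3 to 559 against 205 to 237 in proximal Mtg16-null and 317 to 379 against 187 to 229 in proximal T/T. In distal colon they summed to 499 to 727 against 201 to 289.7 in Mtg16-null (577 to 727 without replicate 2) and 301 to 404 against 234 to 245 in T/T, and none was called in these 4 comparisons. Goblet markers summed to 607110 to 707580 against 433430 to 511310 in proximal Mtg16-null and 395520 to 408170 against 359290 to 359780 in proximal T/T, with 5 and 3 of 9 at a positive log2 fold change. These sums lack *Muc2*, the main goblet cell mucin, which has no listed values, and they weigh abundant genes most. The study reports fewer goblet cells per crypt in both mutants and lower goblet genes in both segments. Myeloid markers summed to 585 to 999 against 497 to 572 in proximal Mtg16-null and, the other way, to 524 to 539 against 695 to 701 in proximal T/T. B and plasma cell markers summed to 8307 to 9404 against 11133 to 11591 in proximal T/T, with 0 of 6 at a positive log2 fold change. Colonocyte, tuft, endothelial and glial sums were also above WT in both T/T libraries, and the endothelial sum in both Mtg16-null libraries. The part of these lists in the levels of the 8 genes was not tested, and in bulk samples more cells of a type and more RNA per cell, or fewer and less, cannot be told apart.

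**Figure D2:**
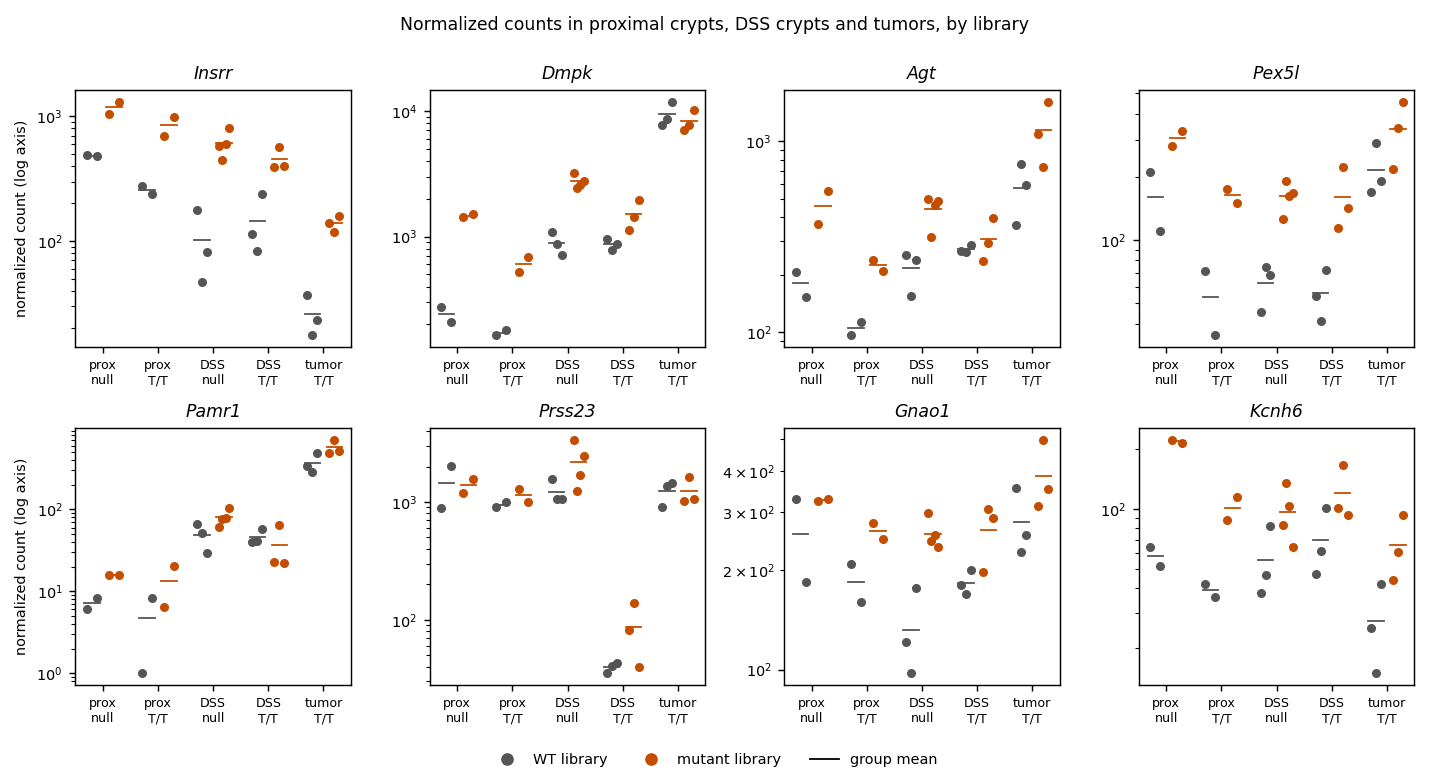
Normalized counts (log axis) of the 8 genes in proximal crypts, crypts after DSS and tumors, each point a library, gray for WT and orange for mutant, with lines at the group means. *Insrr* is the only one of the 8 whose mutant points lie above the WT points in all 5 comparisons, while *Dmpk* is separate in the first 4 and mixed in tumors, where both genotypes lie between 7004 and 11812.

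The levels of the genes in WT colon differed between segments. In a table of WT libraries alone, scaled together, *Insrr* ranged from 248 to 454 normalized counts in 4 proximal libraries (median 366) and from 34.5 to 56.3 in 7 distal ones (median 46.0), a 7.70-fold higher proximal mean. *Prss23* ranged from 827 to 1877 (median 977) in proximal and from 71.2 to 219 (median 126) in distal crypts, an 8.36-fold higher proximal mean. *Gnao1* was 2.10-fold higher in proximal colon, at 167 to 305 against 76.2 to 143. *Dmpk* and *Pamr1* went the other way. *Dmpk* had 169.6 to 255 (median 191) in proximal and 523 to 954 (median 664) in distal crypts, a 3.43-fold higher distal mean, and *Pamr1* had 1.03 to 8.70 against 30.4 to 88.3, a 9.77-fold higher distal mean. The groups did not overlap for these 5 genes. They overlapped for *Agt* (99.3 to 192 proximal, 102 to 166 distal), *Pex5l* (36.7 to 196 and 24.2 to 59.2) and *Kcnh6* (37.7 to 59.7 and 45.0 to 84.5). No test was made, since the distal WT libraries took part in the choice of the genes.

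**Figure D3:**
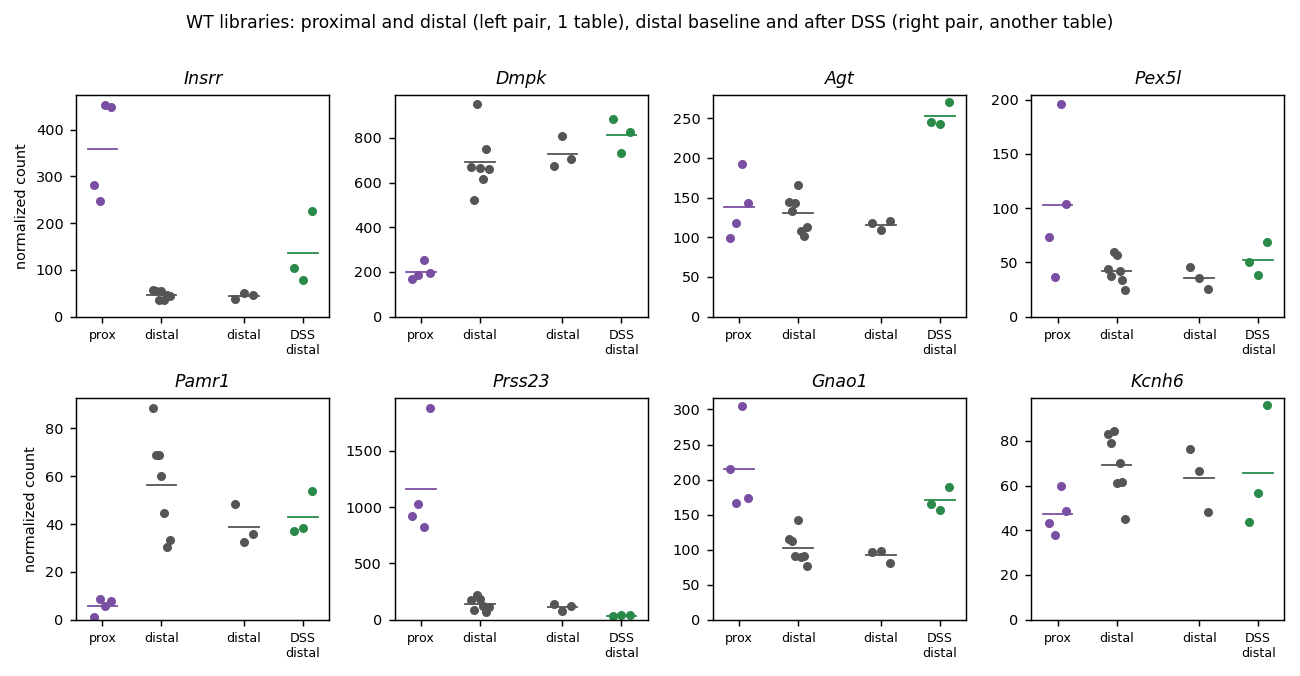
Normalized counts (linear axes from 0) of the 8 genes in WT libraries, proximal and distal in a table scaled together (left pair) and distal of the T/T colony at baseline and after DSS in another (right pair), each point a library and each line a mean. *Insrr* and *Prss23* lie high in proximal colon and *Dmpk* and *Pamr1* in distal colon, and in the T/T colony after DSS *Insrr* and *Agt* lie above and *Prss23* below the baseline.

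After DSS, *Insrr* and *Dmpk* were again higher in Mtg16-null crypts. *Insrr* had 577, 447, 601 and 804 normalized counts in Mtg16-null and 177, 46.9 and 81.2 in WT. *Dmpk* had 3209, 2442, 2565 and 2789.9 in Mtg16-null and 1083, 870.4 and 714 in WT. For both genes the lowest mutant library was more than 2-fold above the highest WT library. In log2 units the fold change was 2.74 (standard error 0.41, adjusted p = 0.0226, limma) for *Insrr* and 1.64 (0.18, adjusted p = 0.00663, limma) for *Dmpk*. These were 2 of the 8 genes, where 0.38% of 14476 genes were called higher. The *Dmpk* call held in each of 13 alternatives (highest adjusted p = 0.0385), while the *Insrr* call was lost without Mtg16-null replicate 1, 3 or 4 or WT replicate 3 (adjusted p from 0.0632 to 0.0833, limma).

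*Agt*, *Pex5l* and *Gnao1* were also above WT in each Mtg16-null library after DSS, without being called. *Agt* had 498, 315, 466 and 486 normalized counts against 254, 155 and 239 (log2 fold change 1.04, adjusted p = 0.104, limma). *Pex5l* had 125, 191, 162 and 168 against 45.4, 74.2 and 68.4 (1.37, adjusted p = 0.0611, limma), and *Gnao1* 299, 245, 256 and 235 against 121, 97.7 and 177 (1.00, adjusted p = 0.107, limma). Together with *Insrr* and *Dmpk* they make 5 of 8 genes without overlap, against 6.18% of all genes. The groups overlapped for *Prss23* (3372, 1249, 1694 and 2471 against 1557, 1056 and 1066), *Kcnh6* (83.2, 136, 104 and 64.2 against 37.8, 46.9 and 82.1) and *Pamr1* (61.5, 75.5, 78.1 and 105 against 67.0, 50.8 and 29.2). Their log2 fold changes were 0.76 (95% confidence interval 0.05 to 1.47), 0.81 (-0.01 to 1.64) and 0.75 (-0.04 to 1.54).

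In this comparison libraries with the same replicate number deviated together, and the number was also fitted as a block. The labels do not state a pairing, so this fit rests on those correlations. Mtg16-null replicate 4 has no WT partner and adds nothing to the genotype effect in that fit. With the block, 6 of the 8 genes were called higher, against 5.72% of all genes. *Insrr* then had a log2 fold change of 2.60 (adjusted p = 0.00122), *Dmpk* 1.63 (0.000296), *Agt* 0.98 (0.00685), *Pex5l* 1.34 (0.00773), *Gnao1* 1.05 (0.0224) and *Prss23* 0.67 (0.0360), all from limma, while *Kcnh6* (0.99, 0.0771) and *Pamr1* (0.61, 0.301) were not called. DESeq2 called 5 of the 8, *Insrr*, *Dmpk*, *Agt*, *Pex5l* and *Gnao1*, where it called 3.36% of genes higher.

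Markers of other cell types and of colon segments were also at other levels in Mtg16-null after DSS. Myeloid marker genes summed to 6128 to 19612 normalized counts in Mtg16-null and 945 to 3559 in WT, with 7 of 7 at a positive log2 fold change and *Lyz2* called. Fibroblast markers summed to 466 to 4552 against 426 to 506, overlapping, with 6 of 6 tested at a positive log2 fold change. B and plasma cell markers summed to 15525 to 21796 against 14877 to 19923, overlapping, with 6 of 6 at a positive log2 fold change (median 1.31). Of 9 colonocyte markers 5 had a positive log2 fold change and 1 was called higher. Enteroendocrine markers summed to 38775 to 43885 against 26578 to 31856, with 14 of 18 at a positive log2 fold change and *Cck* and *Nts* called. Neuron markers summed to 2444 to 5676 against 1858 to 2683, overlapping, with 3 of 4 tested at a positive log2 fold change and *Ret* called. *Hoxd13*, the homeobox gene of distal colon, ranged from 815 to 2864 in Mtg16-null and from 3321 to 3787 in WT, and *Prap1*, high in proximal colon, from 72.7 to 147 against 32.8 to 43.2. *Insrr* and *Prss23* are higher in WT proximal than distal colon and *Dmpk* is lower. The part of these differences in the levels of the 8 genes was not tested.

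In T/T crypts after DSS, none of the 8 genes was called. *Insrr* had 392, 568 and 401 normalized counts in T/T and 114, 83.6 and 239.5 in WT, *Dmpk* 1122, 1434 and 1944 against 959.9, 789 and 872, and *Pex5l* 114, 223 and 142 against 54.3, 41.2 and 72.4. These 3 genes did not overlap between genotypes, nor did 5.66% of all genes. Their log2 fold changes were 1.76 (95% confidence interval 0.75 to 2.76, adjusted p = 0.265), 0.75 (0.16 to 1.34, adjusted p = 0.433) and 1.48 (0.60 to 2.35, adjusted p = 0.274, limma). Limma called 0 of 13648 genes here (0% higher), with 1197 at an unadjusted p under 0.05, and edgeR 0 as well. DESeq2 called 334 (1.14% of genes higher), among them *Insrr* (adjusted p = 0.0223) and *Pex5l* (0.0167). The limma result therefore does not show that the genes were at WT levels.

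*Agt* was the gene whose difference in T/T was smallest after DSS, at 237, 292 and 398 normalized counts against 267, 262 and 286 (log2 fold change 0.15, 95% confidence interval -0.47 to 0.77). *Pamr1* was at 22.5, 64.4 and 22.3 against 40.2, 41.2 and 56.9 (-0.50, -1.64 to 0.65) and *Prss23* at 81.6, 139 and 40.0 against 35.3, 40.1 and 43.1 (0.95, -0.18 to 2.08). *Gnao1* had 197, 308 and 289 against 180.0, 169 and 199.9 (0.51, -0.12 to 1.13) and *Kcnh6* 102, 167 and 93.1 against 47.3, 61.3 and 102 (0.80, -0.15 to 1.75). In each of these 5 genes at least 1 T/T library lay under the highest WT library. Enteroendocrine markers summed to 29159 to 37715 in T/T and 28939 to 36682 in WT, neuron markers to 892 to 1283 against 447 to 549.7, myeloid markers to 1993 to 2415 against 638 to 1433, and *Prap1* had 77.3 to 122 against 44.8 to 74.7. Goblet markers summed to 728720 to 818360 against 1155300 to 1341800, with 4 of 9 at a positive log2 fold change, and tuft markers had 1 of 7 (median -1.84), none called. Epithelial markers had 0 of 6 at a positive log2 fold change (median -0.377), fibroblast markers 6 of 6 (0.676) and B and plasma cell markers 5 of 6 (1.52). The sums of these lists overlapped, and none of their genes was called. *Atp12a* and *Hoxd12*, chosen after their values were seen as low in the library that stood apart, had 7282 to 21417 against 29004 to 61809 and 40.8 to 175 against 177 to 298. *Hoxd13* (894 to 2417 against 1845 to 3861), *Hoxd10* (39.1 to 170.3 against 69.1 to 196) and *Abca12* (24.2 to 248 against 16.4 to 44.6) overlapped. Their part in these values was not tested.

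The WT libraries of the T/T colony were also scaled together at baseline and after DSS, 3 and 3. *Agt* had 109 to 121 normalized counts at baseline and 243 to 271 after DSS, *Insrr* 37.6 to 49.5 and 77.5 to 227, and *Gnao1* 81.2 to 97.8 and 157 to 189. *Prss23* was lower after DSS, at 32.5 to 40.8 against 76.4 to 137. In WT of the Mtg16-null colony it had 1056 to 1557 after DSS and 91.5 to 225 at baseline, in tables scaled separately. The groups did not overlap for these 4 genes and did for the other 4. No test was made, since the baseline libraries took part in the choice.

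In tumors, *Insrr* was apart between the genotypes and *Dmpk* was not, and none of the 8 genes was called by limma. *Insrr* had 138, 119 and 159 normalized counts in T/T tumors and 36.9, 17.6 and 23.3 in WT tumors. Each T/T tumor was above each WT tumor, with a log2 fold change of 2.43 (standard error 0.34, 95% confidence interval 1.65 to 3.21). Limma's adjusted p was 0.406 over 15900 genes, so the gene was not called, and its unadjusted p was 0.000107. DESeq2 called it (adjusted p = 5.19e-06), where it called 0.0692% of genes higher. *Dmpk* had 7004, 7719 and 10199.8 in T/T and 7751, 8695 and 11812 in WT tumors, a log2 fold change of -0.18 (-0.62 to 0.27). The genotypes overlapped for *Dmpk*, and whether its effect in tumors differed from that in crypts was not tested.

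*Kcnh6* had 43.9, 61.2 and 93.7 normalized counts in T/T tumors against 25.3, 14.97 and 41.9, the other gene without overlap (log2 fold change 1.29, 95% confidence interval 0.22 to 2.36). These are 2 of the 8 genes, against 2.98% of all genes. *Agt* had 1089, 738 and 1614 against 362, 761 and 593 (0.99, 0.20 to 1.79), *Pex5l* 218, 342 and 456 against 169.6, 289 and 191 (0.62, -0.12 to 1.36), and *Pamr1* 487, 706 and 519 against 342, 288 and 487 (0.63, 0.08 to 1.18). In these 3 genes 1 T/T tumor lay at or under the highest WT tumor. *Gnao1* was at 312, 498 and 352 against 355, 228 and 256 (0.47, -0.11 to 1.04) and *Prss23* at 1009, 1626 and 1061 against 903, 1357 and 1458 (-0.01, -0.57 to 0.55). Limma called 0 of the 15900 genes (0% higher), with 392 at an unadjusted p under 0.05, edgeR called 0 and DESeq2 24.

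Smooth muscle markers summed to 27310 to 119810 normalized counts in T/T and 16893 to 33636 in WT tumors, while they summed to 82.0 to 89.1 in untreated distal WT crypts of the same colony, in a table scaled separately. *Dmpk* averaged 9419 in WT tumors and 631 in those crypts, also on separate scales. Neuron markers summed to 1569 to 1756 in T/T and 1798 to 2636 in WT tumors. Enteroendocrine markers summed to 7178 to 14554 in T/T and 3099 to 8123 in WT tumors, with 18 of 18 at a positive log2 fold change and none called. The part of these tissues in the values of the 8 genes was not tested.

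**Figure D4:**
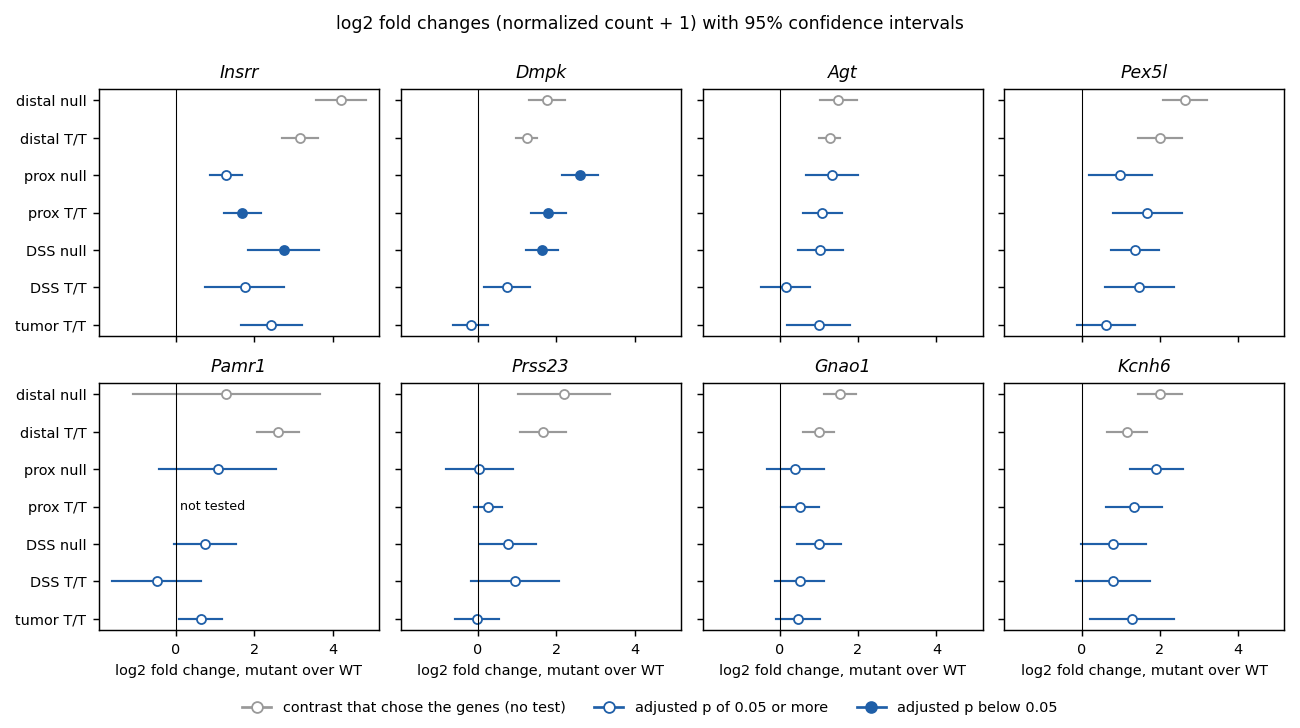
Log2 fold changes (normalized count + 1, mutant over WT, linear axis) of the 8 genes with 95% confidence intervals in 7 comparisons. Gray marks the contrasts that chose the genes, blue the 5 others, and filled blue an adjusted p below 0.05. *Insrr* is above 0 with its whole interval in each comparison, *Dmpk* in all but the tumors, and *Prss23* in none of the 5 others except that of Mtg16-null after DSS.

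Across the 5 comparisons that did not choose the genes, limma without a block called *Dmpk* higher in 3, *Insrr* in 2 and the other 6 in none. With the replicate block, *Insrr* was called as well in proximal Mtg16-null, and *Agt*, *Pex5l*, *Gnao1* and *Prss23* in Mtg16-null after DSS. DESeq2, run in the DSS and tumor comparisons, added *Agt*, *Pex5l* and *Gnao1* in Mtg16-null after DSS, *Insrr* and *Pex5l* in T/T after DSS, and *Insrr* in tumors. Without regard to the test, mutant and WT libraries did not overlap in 5 of 5 for *Insrr*, 4 for *Dmpk* and *Pex5l*, 3 for *Agt* and *Kcnh6*, 2 for *Gnao1*, and 1 for *Pamr1* and *Prss23*, the last by less than 1 normalized count. Of all genes, 17.5% and 22.6% did not overlap in this way in proximal Mtg16-null and T/T, 6.18% and 5.66% after DSS and 2.98% in tumors. The proximal comparisons, where such separation is common, contribute to each of these counts. The share of all genes that reach such counts over the 5 comparisons was not computed, so the counts only describe the genes. The median log2 fold change of the 8 genes was 1.02 in Mtg16-null after DSS, 0.77 in T/T after DSS and 0.62 in tumors, against -0.00, 0.03 and -0.00 over all genes.

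Whether the mutations changed a gene by different amounts was tested on the difference of the 2 log2 fold changes. In proximal colon the Mtg16-null effect on *Dmpk* minus the T/T effect was 0.82 on the log2 scale (95% confidence interval 0.25 to 1.395), which did not pass over all genes (adjusted p = 0.397, limma fits). For *Insrr* the difference was -0.42 (-0.98 to 0.14). After DSS the Mtg16-null effect minus that of T/T was 0.99 (-0.26 to 2.23) for *Insrr*, 0.89 (0.24 to 1.55) for *Dmpk*, 0.88 (0.11 to 1.65) for *Agt* and 1.24 (-0.04 to 2.53) for *Pamr1*, each with an adjusted p of 0.775. The remaining genes had differences from -0.68 to 0.57 in proximal colon and from -0.18 to 0.50 after DSS. None of the 7 genes tested in proximal colon and none of the 8 after DSS was called, where 0.242% of 13622 and 0.0148% of 13536 genes were. At these group sizes the intervals span more than 1 log2 unit. The colonies and the numbers that begin the library names differ with the mutation, so allele and colony cannot be told apart.

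Relatives and partners of the 8 genes were called in 2 cases, with all distal Mtg16-null libraries in the fits. Among the insulin receptor family and its substrates (10 to 13 genes tested besides *Insrr*), none was called in any of the 7 comparisons. *Insr*, the insulin receptor, had log2 fold changes from -0.38 to 0.26 and *Igf1r*, the IGF receptor, from 0.08 to 0.35. Of the DMPK kinase family, 6 genes besides *Dmpk* were tested and none was called. *Cdc42bpb* ranged from -0.24 to 0.26, and *Cdc42bpa* from 0.02 to 1.41, the latter in T/T after DSS with a standard error of 0.59. The peroxisomal import receptor *Pex5* ranged from -0.27 to 0.05, and none of the 5 to 7 PEX5L partners and import receptors was called.

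Of the renin-angiotensin genes (7 to 10 tested besides *Agt*), only *Cma1* was called. This mast cell chymase, which can also cut angiotensin, fell in Mtg16-null after DSS from 410 ± 128 (SD, n = 3) to 86.2 ± 31.8 (SD, n = 4) normalized counts (log2 fold change -2.26, adjusted p = 0.0248, limma). *Ace*, the converting enzyme, had log2 fold changes from -1.17 to 0.23, none called. Of 13 or 14 G protein alpha subunits besides *Gnao1*, only *Gna14* was called, lower in proximal T/T (1367 ± 102 against 2749 ± 130 normalized counts, SD over 2 libraries a group), and its log2 fold change was -1.01 (adjusted p = 0.0380, limma). *Gnai2*, a close relative, ranged from -0.16 to 0.34. None of the 4 to 6 ERG, EAG and ELK potassium channel genes tested besides *Kcnh6* was called, with *Kcnh2* between -0.24 and 0.74.

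The genes whose pattern was most like that of each member were sought over the 27 libraries of the 5 comparisons that did not choose the members, on log2 values centered within each table, among the 12962 genes tested in all 5. *Pamr1*, not tested in proximal T/T, was left out. *Insrr* was most like *Fev* (Pearson r = 0.836), a transcription factor of serotonin-making cells, and *Dll3* (0.816), a Notch pathway inhibitor. Among the genes most like *Dmpk* were *Dmwd* (0.910), its neighbor on the chromosome, and *Mical1* (0.909). *Agt* shared *Dll3* (0.807) with *Insrr* and *Mical1* (0.804) with *Dmpk*. *Gnao1* was most like *Dlg4* (0.847), followed by *Cdk5r2* (0.825) and the enteroendocrine factor *Nkx2-2* (0.822), and *Kcnh6* most like *Myt1* (0.869), another enteroendocrine factor. *Pex5l* was most like *Nptx1* (0.871), a neuronal pentraxin. *Prss23* was most like the Notch ligand *Jag1* (0.816). The libraries share genotype, and with each genotype centered as well the values fell to 0.421 for *Fev* with *Insrr*, 0.651 for *Dmwd* with *Dmpk* and 0.748 for *Myt1* with *Kcnh6*. Between the other 7 members r ran from 0.237 (*Prss23* with *Kcnh6*) to 0.788 (*Insrr* with *Gnao1*), and within genotype from -0.098 to 0.548 (*Dmpk* with *Agt*). These are descriptions, with no test.

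On the mouse genome (GRCm38) the 8 genes lie on 5 chromosomes. *Insrr* (ENSMUSG00000005640.11) lies at chr3:87796951-87816101, *Dmpk* (ENSMUSG00000030409.15) at chr7:19083849-19093821 and *Agt* (ENSMUSG00000031980.9) at chr8:124556534-124569706. *Agt* is 1.86 Mb from the *Mtg16* gene, on the chromosome that carries the engineered alleles, and *Gnao1* is 28.7 Mb from it. Within 5 Mb of the *Mtg16* gene, 94 to 116 genes were tested per comparison and their median log2 fold change was between -0.10 and 0.05. In the 5 comparisons that did not choose the genes, *Atp2c2*, lower in proximal T/T, was the only one of them called.

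The nearest tested genes on either side of each member (10 to 15 per comparison) were called in none of the 7 comparisons. The distal Mtg16-null fit here includes the library that stood apart and was not repeated for these genes without it. *Dmwd*, 1073 bp from *Dmpk*, had log2 fold changes of 1.201, 0.73, 0.99 and 0.84 in the proximal and DSS comparisons with adjusted p of 0.407, 0.380, 0.0745 and 0.450 (limma) and -0.07 in tumors. *Six5*, 773 bp from *Dmpk* on its other side, had -0.33 to 0.28. The neighbors of *Agt*, *Cog2* and *Capn9*, ranged from -0.27 to 0.03 and from -0.37 to 0.77. *Prss23*, *Gnao1* and *Pex5l* share 864, 284 and 340 exonic bases with antisense genes on the opposite strand (*Pex5l* another 24 with a second such gene), and the sources used here do not state that the libraries kept strand, so reads of those stretches cannot be assigned to one gene with certainty. *Insrr* lies on the opposite strand of *Pear1* with no shared exonic base.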

How the data were processed

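RNA of crypts and tumors was sequenced by the authors after poly(A) selection. Per the labels and the study's methods, reads were trimmed with fastp 0.20.0 and quantified with Salmon 1.3.0 on a mouse transcriptome (mm10), summed per gene and scaled in R 3.6.3 with DESeq2 1.26.0. The deposited values are a signal, normalized counts, that is, gene counts divided by the authors' size factor of each library within each of 9 tables. Whether the libraries kept strand is not given in the sources used here. The tables' own fold changes and p-values were not used.

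Each mutant was compared with WT within its own table by limma 3.58.1 (R 4.3.3, trend) on log2(normalized count + 1), for genes with a mean of at least 10, with no covariate. Fold changes on this scale understate the change of low genes. The p-values were adjusted over all genes tested (Benjamini-Hochberg), and a gene with an adjusted p below 0.05 was called. Intervals are 95% confidence intervals. In the 2 proximal tables whole reads could not be recovered in every column. In the 5 other mutant tables the recovered values were whole reads in 100% of cases (tolerance 0.1), and edgeR 4.0.16 and DESeq2 1.42.0 were run on them as alternatives, beside a pseudocount of 0.1, no filter, median scaling, leaving out each library and a replicate block. The scripts were tested on simulated data.

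The replicate numbers of the labels were checked by correlating deviations from the group means. In Mtg16-null after DSS the 3 pairs had r of 0.554, 0.460 and 0.317 and were taken as paired. The labels do not state this pairing, so it rests on these correlations alone. Single pairs of the other comparisons ranged from -0.766 to 0.369. The labels do not say that replicates came from separate mice, so p-values measure the spread between libraries, which may be technical. The 8 genes and the gene lists were chosen with earlier results of these data known. Named besides the 8 genes are called list genes (at most 4 a list), closest relatives, the 3 most alike genes and nearest neighbors. Promoter windows are from RefSeq (GRCm38.p6).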

Additional observations from a re-analysis of the deposited data

Results flagged for a closer look

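In groups of 4 to 10 libraries, a library was singled out where its gap to the nearest other was large for the range of the group (Dixon's criterion). This was so in 2 of 32 groups of libraries and genes, where chance gives about 1.6. *Gnao1* had 200.2 normalized counts in distal T/T replicate 3 and 142 to 151 in the other T/T libraries, a gap of 0.843 of the range. *Insrr* had 36.9 normalized counts in distal WT replicate 3 of the Mtg16-null colony and 55.2 to 57.7 in the other WT libraries, a gap of 0.880 of the range. Neither library changes which group is higher.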

How the results depend on the processing

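With the replicate block, the number of genes called went from 9 to 32 in proximal Mtg16-null, from 32 to 151 in proximal T/T, from 33 to 1 in distal Mtg16-null, from 5 to 0 in distal T/T and from 91 to 1271 in Mtg16-null after DSS. Of the 8 genes, the block called 2 in proximal Mtg16-null and 6 in Mtg16-null after DSS. In the last of these the libraries were taken as paired from the check above, which the labels do not state. The others were not taken as paired. Their r was 0.147 in both proximal comparisons, 0.0155 to 0.369 in distal Mtg16-null and -0.276 to 0.157 in distal T/T. It was -0.766 to -0.0294 in T/T after DSS and -0.385 to 0.103 in tumors. DESeq2 called 200 genes in distal Mtg16-null, 53 in distal T/T, 727 in Mtg16-null after DSS (5 of the 8 genes), 334 in T/T after DSS (2 of the 8) and 24 in tumors (1 of the 8). Without the filter, 2 genes were called in proximal T/T (0 of the 8) and 1 in tumors, and with median scaling 7 in T/T after DSS. Within the libraries named 5094 alone 0 genes were called in distal Mtg16-null, and 2 within those named 4149. For the difference between mutants, the block gave 146 genes in proximal colon and 0 after DSS, and median scaling 0 after DSS. The cause was not tested.

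Leaving out each library gave 6 to 22 genes in proximal Mtg16-null (0 to 1 of the 8), 0 to 27 in proximal T/T (0 of the 8), 2 to 143 in distal Mtg16-null, 0 to 8 in distal T/T, 28 to 106 in Mtg16-null after DSS (1 to 2 of the 8), 0 to 3 in T/T after DSS and 0 to 1 in tumors (0 of the 8 in both). In distal Mtg16-null the highest count, 143, came without the library labelled replicate 2. With 2 libraries a group, the lone library left is assumed to vary like the others. Small log2 fold changes turned sign: *Prss23* in proximal Mtg16-null was -0.55 without WT replicate 1 and -0.16 without Mtg16-null replicate 2 (range to 0.62), *Gnao1* there was -0.0115 without WT replicate 2 (range to 0.82), and *Agt* in T/T after DSS was -0.0444 without T/T replicate 3 (range to 0.33). *Prss23* in tumors was 0.11 and 0.08 without T/T replicates 1 and 3 and 0.07 and 0.12 without WT replicates 2 and 3, and -0.23 without T/T replicate 2. The log2 fold change of *Insrr* kept its sign in each alternative, from 1.11 to 1.43 in proximal Mtg16-null and from 2.20 to 2.71 in tumors. Read depth could not be given for the proximal libraries.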

Other observations

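Single markers of other cell types were called as well. *Tff3*, a goblet cell peptide, was higher in proximal Mtg16-null (log2 fold change 1.65, adjusted p = 0.0453, limma) and in proximal T/T (0.92, adjusted p = 0.0380, limma). *Ang4*, an antimicrobial secreted by goblet and Paneth cells, was higher in proximal T/T (1.73, adjusted p = 0.0436, limma) and in Mtg16-null after DSS, where it averaged 5685 normalized counts against 172 in WT (5.17, adjusted p = 0.00113, limma). Of the 9 goblet markers tested, 5 had a positive log2 fold change in proximal Mtg16-null (median 0.07), 3 in proximal T/T (median -0.27) and 4 in Mtg16-null after DSS (median -0.01). After DSS the endocrine progenitor factor *Neurog3* was higher in Mtg16-null, at 328 against 107 (1.66, adjusted p = 0.0321, limma), and the tuft cell markers *Dclk1* and *Trpm5* were lower, at 46.1 against 209.3 and 30.0 against 132 (-2.13 and -2.07, adjusted p = 0.0113 and 0.0262, limma). Of the 7 tuft markers tested there, 3 had a positive log2 fold change (median -0.04), and the list summed to 825 to 1817 normalized counts against 728 to 1093. No gene of the B and plasma cell, T cell, endothelial, glial, fibroblast, smooth muscle, stem cell or epithelial lists was called in any of the 7 comparisons. All distal Mtg16-null libraries were in that fit.

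*Prss23* after DSS had 1056 to 1557 normalized counts in WT of the Mtg16-null colony and 35.3 to 43.1 in WT of the T/T colony. These tables were scaled separately and the library names begin with different numbers, so no comparison was made.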
